A study of Homo sapiens with 12 samples.

Results

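In MEC1 cells with wild-type SF3B1 and no drug, 15626 exons of 28 to 249 nt were spliced into fewer than 10% of the transcripts that could hold them. They were chosen by reading the deposited inclusion table: exon events of that length, a mean inclusion level under 10% over the 3 wild-type DMSO samples, a level above 0 in at least 1 of the 12 samples, and 20 or more inclusion plus exclusion reads in every sample. They made up 16.3% of the 95889 exons of that length with enough reads and lay in 5832 genes. MEC1 is an established human B cell line from chronic lymphocytic leukemia, and its RNA was sequenced after poly(A) selection. SF3B1 is a core protein of the U2 particle of the spliceosome, and the study set cells with its K700E mutation against wild-type (WT) cells, with and without the drug H3B-8800.

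Each of the 4 groups had 3 samples, each sequenced in 3 technical runs. WT replicates 1 and 2 were labelled a and b, with genotype SF3B1 WT and no base change. WT replicate 3, labelled 34b, carried the single base change c.2106G>A in SF3B1. The K700E replicates 1, 2 and 3 were labelled 41, 38 and 15b, and all carried c.2106G>A together with c.2098A>G. Treatment lasted 6 h, with the splicing modulator H3B-8800 at 75 nM or with its solvent DMSO. Samples with the same label are called a line here. The labels do not say how the lines were made or whether they were grown apart. Where K700E is set against WT, the mutation and other differences between lines cannot be told apart. Against WT replicates 1 and 2, the mutation cannot be told apart from c.2106G>A or from any editing either. Only WT replicate 3 shares the second base change with the K700E lines, and it is a single line. The samples are bulk RNA, so a change in all cells and a larger change in some of them cannot be told apart. Below, 3 values in a row follow replicates 1, 2 and 3.

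Exons that most transcripts skip include cryptic and poison exons. A cryptic exon is a stretch of intron that the splicing machinery can take for an exon, because it is flanked by sequences that resemble splice sites. A poison exon carries a stop codon in the reading frame, and transcripts that include it are usually destroyed by nonsense-mediated decay (NMD), a surveillance pathway that removes mRNAs with early stops. Genes of splicing factors are known for conserved poison exons, by which their proteins limit their own amount. SF3B1 holds the branch point, a nucleotide upstream of each exon that starts the splicing reaction. Mutant SF3B1 is known for using branch points and 3' splice sites that normal SF3B1 passes over, and H3B-8800 belongs to a family of compounds that bind SF3B where the branch point is held.

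The sequences below show what inclusion of 11 of these exons adds to the transcript, for exons that the results turn on and whose printed bases lie within transcripts of GENCODE v29 (GRCh38). In the first 7, the annotated coding frame of the upstream exon runs into a stop codon, and the sequence is given from the first base of the exon to that stop, which is in capitals. BRD9, CHD2, MTMR1, EDRF1, QKI, MZB1 and SNRNP70 are shown this way because their exons hold an in-frame stop. The printed bases lie within annotated coding sequence or stop codons. A stop here can thus be the annotated end of a protein, and which of them are early stops was not tested.
BRD9 chr5:869363-869394 (minus strand): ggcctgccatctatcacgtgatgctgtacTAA
CHD2 chr15:92998149-92998205 (plus strand): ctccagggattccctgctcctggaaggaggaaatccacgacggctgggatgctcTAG
MTMR1 chrX:150751030-150751080 (plus strand): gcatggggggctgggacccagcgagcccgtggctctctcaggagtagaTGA
EDRF1 chr10:125742220-125742239 (plus strand): gctttaaaactgggaagTAG
QKI chr6:163565946-163565971 (plus strand): gtatggctttcccaacgaaaggcTAA
MZB1 chr5:139389409-139389420 (minus strand): gcccatcctTGA
SNRNP70 chr19:49102114-49102139 (plus strand): ccaccacgcagctggcttgcagcTGA
The remaining 4 exons are given whole, with their last 3 bases in capitals. The exons of ECT2, TMEM214 and ACIN1 add a multiple of 3 bases with no stop in frame. The GTF2H3 exon is 46 nt long, so it shifts the frame of what follows, and the letters TAG at its end are not in frame.
ECT2 chr3:172755483-172755575 (plus strand): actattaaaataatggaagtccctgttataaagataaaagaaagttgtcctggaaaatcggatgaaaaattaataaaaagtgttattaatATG
TMEM214 chr2:27037815-27037892 (plus strand): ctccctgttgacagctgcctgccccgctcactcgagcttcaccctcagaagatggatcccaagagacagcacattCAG
ACIN1 chr14:23089982-23090101 (minus strand): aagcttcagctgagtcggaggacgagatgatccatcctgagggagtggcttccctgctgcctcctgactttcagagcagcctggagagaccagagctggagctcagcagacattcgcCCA
GTF2H3 chr12:123659430-123659475 (plus strand): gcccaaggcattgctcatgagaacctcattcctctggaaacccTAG

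Most of the 15626 exons were close to absent in the WT DMSO samples that chose them. The median level was 0.53%, 9892 exons lay under 1%, 1770 were listed at 0 in all 3 samples, and 1233 lay between 5% and 10%. Nearest to the limit, exons of SERPINB9 at 9.99%, MGAT5 at 9.98% and C7orf26 at 9.97% fell inside, and exons of ARSK at 10.01%, SUDS3 at 10.01% and METTL15 at 10.01% outside. Another 1619 exons under 10% were listed at 0 in all 12 samples and were not included. The exons were read by a median of 204 reads per exon and sample. At that depth a level of 0 allows up to 1.47% (3 reads), and 10 inclusion reads, about 5%, have an exact 95% binomial interval from 2.38% to 8.83%. These limits cover counting error only.

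Reads over all exon events ranged from 61063185 to 83353884 per sample, with all 6 H3B-8800 samples below all 6 DMSO samples. All 7 B cell marker genes had spliced reads in every sample, against 1 of 6 T and NK cell markers (GNLY), 0 of 5 myeloid markers and 2 of 5 fibroblast and epithelial markers (COL1A1 and KRT8). One library stood apart in these exons: K700E DMSO replicate 3 had 200 of them above 10%, against 318 and 342 in replicates 1 and 2. The main counts that rest on the K700E DMSO group are therefore also given without it.

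Most of the rarely included exons were not annotated. Of the 15626, 9026 (57.8%) lay outside all exons of GENCODE v29, and 1814 (11.6%) overlapped an annotated exon without sharing both of its ends. Another 2698 (17.3%) matched an exon found only in transcripts annotated as NMD targets or noncoding, and 2088 (13.4%) matched an exon of a protein-coding transcript. Of the 78644 exons of the same length at 10% or more in WT DMSO, the same classes held 278 (0.353%), 6643 (8.45%), 1665 (2.12%) and 70058 (89.1%). Neither splice site was annotated for 9582 (61.3%) of the rare exons.

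The reading frame at the rare exons could be read for 4659 of 15626 (29.8%), because the others lay outside annotated exons or next to noncoding sequence. That is under 80%, so a statement about the whole set is void, and the counts describe these 4659 exons. An in-frame stop codon was found in 3039 of them (65.2%), 795 (17.1%) shifted the frame without a stop, and 825 (17.7%) kept it. Among the other exons of the same length, with 70884 read, the counts were 4712 (6.65%), 40393 (57.0%) and 25779 (36.4%). The rare exons were slightly shorter, with a median of 99 nt against 114 nt. The introns on their sides had medians of 1676 nt upstream and 1908 nt downstream, against 1697 nt and 1728 nt. Several rare exons often lay in 1 gene: 2197 exons were the single one of their gene, and LRRFIP2 held 17. Exons of 1 gene share its transcripts and sometimes their skipping reads, so they are not independent.

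**Figure D1:**
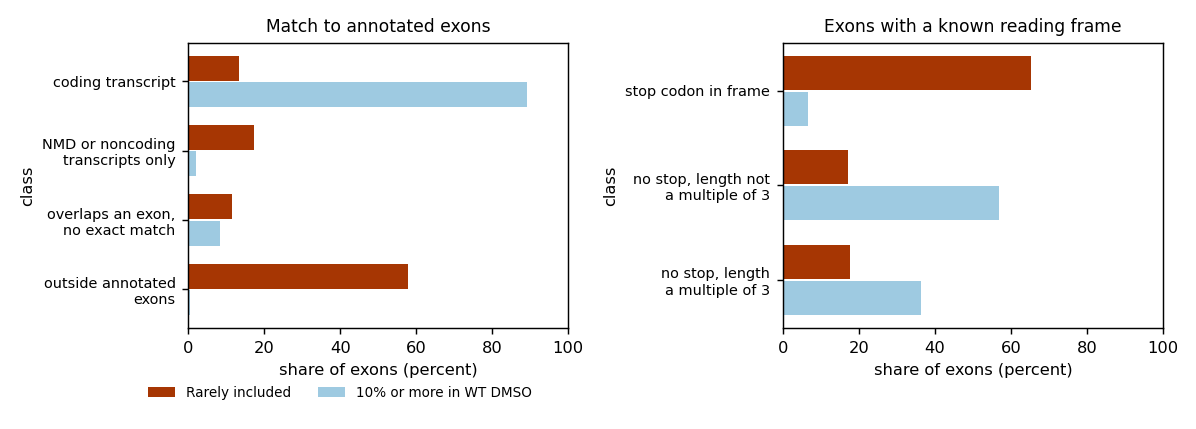
Share of exons in percent (horizontal axis) by class (vertical axis). Dark bars stand for the 15626 rarely included exons and light bars for the 78644 exons of the same length at 10% or more in WT DMSO; the right panel covers the 4659 and 70884 exons with a known reading frame. The dark bars are longest for exons outside annotation (57.8%) and for exons with an in-frame stop (65.2%).

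The first comparison set K700E against WT in DMSO. It holds the WT DMSO values that chose the exons, so its values are a description without a test. In K700E, 22 of the exons, in 21 genes, stood 10 points or more above WT with no overlap between the 3 and 3 samples, and 0 stood 10 points or more below. A point is 1 percentage point of inclusion. The median of the 22 was 5.72% in WT and 20.4% in K700E. The 22 were 0.141% of the 15626 rare exons. Among all 46284 exons of the fit, 0.423% were higher by this rule in K700E. The fit leaves out exons with a mean under 1% over the 12 samples, which 10495 of the rare exons had. The bases of these shares are therefore unlike, and the shares were not compared. A fall of 10 points was not possible for an exon chosen under 10%, so the absence of falls follows from the choice. Without K700E DMSO replicate 3 the count of 22 became 29.

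The exons that stood highest in K700E DMSO were those of TTC3, BRD9, NOL9 and ECT2. TTC3 encodes a ubiquitin ligase, and its exon (chr21:37197882-37198025, 144 nt) had levels of 1.45%, 0% and 4.77% in WT, against 58.8%, 57.6% and 53.4% in K700E. The raw junction reads of this exon came nearly all from its downstream side, with 0 upstream, 131 downstream and 44 skipping reads summed over the K700E DMSO samples. Its event skips over an annotated exon, and the annotated introns at its ends had 498 and 479 spliced reads per sample against 27.3 reads in the event itself, so the level describes a minor share of the gene's transcripts. Such busier neighbouring introns were found for 61 of the 15626 exons and 1 of the 22.

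BRD9 encodes a subunit of the noncanonical BAF chromatin remodelling complex. Its exon (chr5:869245-869394), with the stop codon at base 30 of 150 printed above, had 5.49%, 7.63% and 5.36% in WT, against 41.7%, 50.6% and 47.8% in K700E. In K700E the reads were 13 upstream, 391 downstream and 229 skipping, against 45 upstream, 80 downstream and 964 skipping in WT. The downstream junction thus carried most inclusion reads in K700E. NOL9 encodes a polynucleotide kinase of ribosomal RNA processing, and its 81 nt exon (chr1:6546310-6546390) lies outside annotated exons. It had 1.47%, 1.74% and 0.31% in WT and 37.1%, 36.2% and 44.3% in K700E, with 271 reads on the upstream and 239 on the downstream junction in K700E. Both sides of the exon were read about equally.

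ECT2 encodes an exchange factor for small GTPases that cells need to divide. Its 93 nt exon, in frame and printed above, had 2.64%, 2.43% and 1.93% in WT and 33.02%, 34.9% and 33.7% in K700E, where 430 reads covered the upstream junction, 534 the downstream junction and 944 skipped it. The K700E samples of ECT2 lay close to each other and far above all WT samples. TMEM214, a gene of an endoplasmic reticulum membrane protein, had 2.57%, 3.24% and 2.55% in WT and 24.2%, 28.6% and 23.5% in K700E at its in-frame 78 nt exon. MZB1 encodes a B cell and plasma cell protein of the endoplasmic reticulum that takes part in antibody secretion. Its 94 nt exon (chr5:139389327-139389420), with the stop codon at base 10, had 6.16%, 6.46% and 7.54% in WT, against 27.5%, 15.9% and 20.3% in K700E. The junctions of MZB1 were the most deeply read of these, with 997 upstream, 998 downstream and 3747 skipping reads in K700E.

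The other exons in this set with named genes lay at lower levels. All were chosen for a lack of overlap between the 3 and 3 samples, so it is no further result. ACIN1, whose protein binds the exon junction complex, had 8.16%, 8.54% and 10.7% in WT and 27.1%, 22.6% and 20.03% in K700E at a 120 nt exon that keeps the frame. CHD2, a chromatin remodeller gene, had 6.37%, 10.1% and 9.63% in WT and 25%, 23.4% and 16.4% in K700E at its exon with a stop. CCDC88A, which encodes the actin-binding protein girdin, had 8.38%, 5.81% and 6.84% in WT and 27.1%, 21.7% and 28.1% in K700E. In these 3 genes the lowest K700E sample was above the highest WT sample, by which they were chosen. CEP290, a gene of the ciliary transition zone, had 4.31%, 1.52% and 3.23% in WT and 20%, 16.7% and 15.97% in K700E at an unannotated exon. GPCPD1, a phosphodiesterase gene of choline metabolism, had 0.65%, 6.48% and 1.92% in WT and 25.8%, 15.6% and 9.48% in K700E, with the widest spread among the K700E samples of these genes. NAA16, an auxiliary subunit gene of an N-terminal acetyltransferase, had 4.02%, 3.51% and 2.88% in WT and 11.1%, 18.8% and 17.7% in K700E at an exon of 29 nt. In these genes too the lowest K700E sample stood above the highest WT sample, by the same choice. SFMBT1, which encodes a histone-binding repressor, had 4.26%, 7.1% and 6.07% in WT and 11.3%, 20.4% and 22.9% in K700E. TAF2, a subunit gene of the transcription factor TFIID, had 0.49%, 0% and 0.17% in WT and 20%, 18.3% and 18.6% in K700E. DNAJB6, a cochaperone gene, held 2 of the 22 exons, of which the higher had 6.67%, 11.9% and 3.61% in WT, against 29.7%, 22.9% and 15.5% in K700E. A further 6 exons lay in MMD, EPG5, MX1, SORL1, ULK3 and METTL25.

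**Figure D2:**
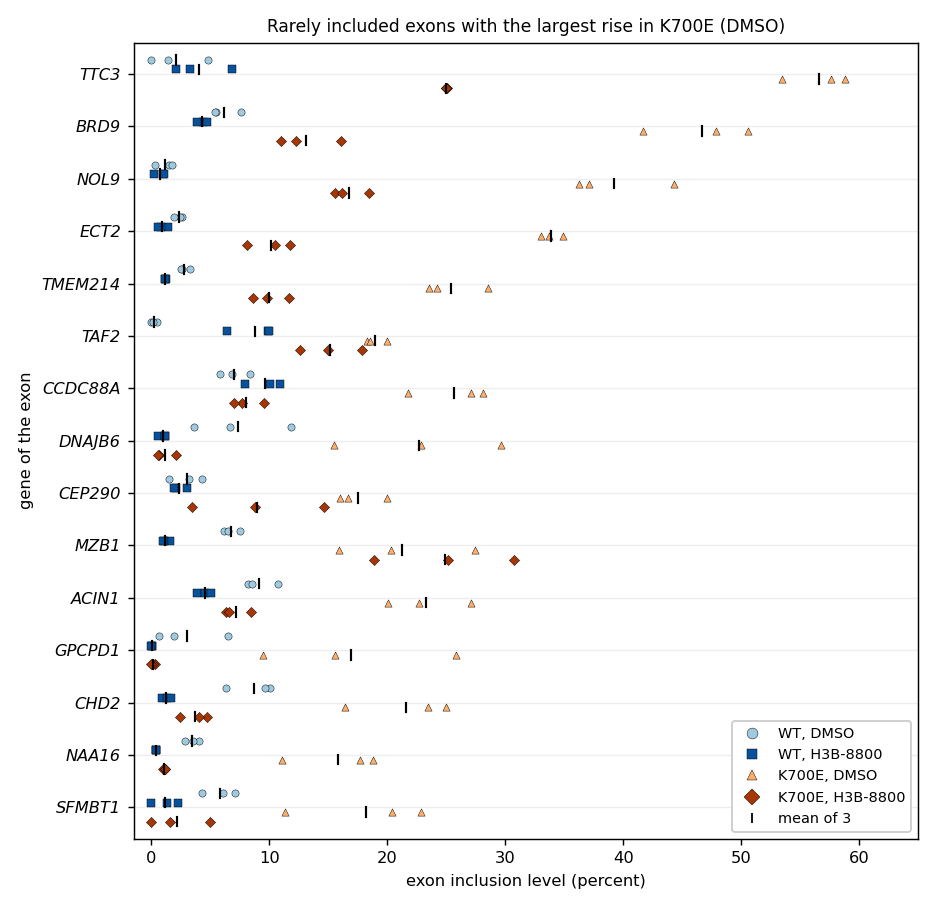
Inclusion level in percent (horizontal axis) of the 15 rarely included exons, 1 per gene (vertical axis), with the largest rise in K700E over WT in DMSO. Each symbol is 1 sample of the group given in the legend and each bar the mean of 3. The K700E DMSO triangles lie to the right of all WT DMSO circles in every gene, by which the exons were chosen, and the K700E H3B-8800 diamonds lie to their left except in MZB1.

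The largest differences in the other direction were under 10 points. The exon of PCMTD2 had 11.1%, 6.67% and 9.71% in WT, against 3.95%, 3.36% and 3.4% in K700E. TRIM23, a ubiquitin ligase gene, had 6.38%, 8.82% and 9.68% in WT and 2.44%, 2.86% and 2.04% in K700E. Over all 15626 exons the median difference between K700E and WT in DMSO was 0.00333 points, with 7824 higher and 7117 lower in K700E.

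The second comparison set K700E against WT under H3B-8800. It uses none of the WT DMSO levels that chose the exons and was tested with limma. Its samples took part only in the level above 0, the read minimum and the mean limit of the fit. Few of these exons differed: 3 were called higher in K700E (MZB1, TTC3 and NOL9) and 1 lower (RBM6). A call took a difference of at least 10 points and an adjusted p under 0.05, by the Benjamini-Hochberg method over every tested splicing event. Of the 46284 exons in the fit 0.0583% were called higher and 0.0583% lower. The fit held 5131 of the 15626 exons, because the other 10495 had a mean under 1% over the 12 samples and could not reach 10 points in this comparison. Of those 5131, 0.0585% were called higher and 0.0195% lower. An exon could enter the 5131 because it was high in K700E, so these shares are a description. Over all 15626, the median difference was 0.0 points.

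The MZB1 exon had the largest difference of the 4. With H3B-8800 it had 1.6%, 1.05% and 0.95% in WT and 25.1%, 18.8% and 30.7% in K700E, a difference of 23.7 points (limma, adjusted p = 1.37e-05). The junction reads were 45 upstream, 40 downstream and 3505 skipping in WT. In K700E they were 535 upstream, 489 downstream and 1433 skipping. The groups did not overlap, which the choice of named exons required. NOL9 had 0.96%, 0.26% and 1.04% in WT and 18.5%, 15.6% and 16.2% in K700E under the drug, a difference of 15.98 points (limma, adjusted p = 0.000483). All K700E values of NOL9 were above 15% and all WT values near 1% or lower.

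TTC3 had 6.83%, 3.24% and 2.11% in WT and 25.1%, 24.9% and 24.9% in K700E, a difference of 20.9 points (limma, adjusted p = 0.0116). The 3 K700E values of TTC3 were nearly equal, and its call was lost without WT H3B-8800 replicate 2 (adjusted p = 0.0542) or replicate 3 (adjusted p = 0.0575). RBM6 encodes an RNA-binding protein, and its exon (chr3:50061679-50061748, 70 nt) overlaps an annotated exon but shares neither end. It had 14.4%, 21.03% and 16.8% in WT and 3.86%, 7.52% and 3.46% in K700E, a difference of -12.5 points (limma, adjusted p = 0.0184). In DMSO the RBM6 exon had 7.65%, 7.57% and 7.28% in WT and 4.57%, 3.5% and 2.15% in K700E. Its call was lost without K700E H3B-8800 replicate 1 (adjusted p = 0.0921) or 3 (adjusted p = 0.0907), and without WT H3B-8800 replicate 2 (adjusted p = 0.0927) or 3 (adjusted p = 0.0675).

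The exons that stood high in K700E in DMSO could be read again under the drug. The drug samples took no part in choosing them beyond the read minimum. They came from the same lines, so a difference between lines could recur, and this is no independent repeat. Of the 22, 20 had a higher mean in K700E than in WT under H3B-8800. So did 2753 of the 5131 rare exons in the fit and 27069 of all 46284 exons in it. At an adjusted p under 0.05 and any size, limma found 7 higher (TTC3, BRD9, NOL9, ECT2, TMEM214, MZB1 and SORL1) and 0 lower. By that rule 0.246% of the 46284 exons in the fit were higher and 0.197% lower. Of the 5131 rare exons in the fit, 27 (0.526%) were higher and 11 (0.214%) lower. They entered the fit by their mean over all 12 samples, so an exon could enter because it was high in K700E. These shares are therefore a description. Without adjustment, 403 of these 5131 were higher and 284 lower at p under 0.05 by limma. Unchanged exons also pass that limit, and the share over all exons was not counted, so these numbers are no count of differing exons. The median difference of the 22 was 4.36 points under the drug and 14.0 points in DMSO. ECT2 had 1.45%, 0.78% and 0.58% in WT and 11.8%, 10.5% and 8.09% in K700E under the drug (limma, adjusted p = 0.000162). TMEM214 had 1.18%, 1.26% and 1.16% in WT and 8.64%, 9.76% and 11.6% in K700E (limma, adjusted p = 2.42e-05). BRD9 had 4.37%, 3.87% and 4.75% in WT and 12.3%, 11.03% and 16.1% in K700E, a difference of 8.8 points (limma, adjusted p = 0.0149). In these 3 genes the K700E levels under the drug lay between those of WT and those of K700E in DMSO.

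The third comparison asked what H3B-8800 did to these exons in K700E cells, and was tested with limma. Most had a lower mean under the drug, 77 fell by 10 points or more, and 64 rose by 10 points or more. The mean level over the 15626 exons was 1.62%, 1.64% and 1.40% in DMSO and 0.982%, 1.02% and 0.972% under the drug. The number above 10% was 318, 342 and 200 in DMSO and 187, 198 and 174 under the drug. The number listed at 0 went from 3538, 4013 and 4350 to 6461, 6566 and 6599. Depth moved with treatment too: the median reads per exon were 226 to 268 in DMSO and 169 to 188.5 under the drug; its part in the counts at 0 was not tested. Over all 15626 exons, 10657 had a lower and 4091 a higher mean under the drug, with a median difference of -0.163 points. For the 5131 of them in the fit the median was -1.33 points, and for all 46284 exons of the fit -6.47 points. Of the 5131, 3828 were lower and 1296 higher, and of the 46284, 42885 were lower and 3322 higher.

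The 77 exons called lower lay in 72 genes, and their median level went from 13.5% to 1.71%. Of all exons in the fit, 38.5% were called lower, and of the 5131 rare exons in it 1.5%. A fall of 10 points needs a level of at least 10% in K700E DMSO, which 249 of the rare exons had, and 77 of these 249 (30.9%) were called. Without K700E DMSO replicate 3 the counts were 98 of 311 (31.5%). A high level in K700E DMSO, which the test also uses, picked these exons and favours a fall. Their shares are therefore a description and are not to be set against the 38.5%. The count of 77 became 48 among exons with 50 or more reads in every sample. In all, 1994 rare exons, 38.9% of the 5131, were lower at an adjusted p under 0.05 and any size, and the share over the fit was 76.4%. Without K700E DMSO replicate 3 the 1994 became 1897 (37.0%). An exon could enter the 5131 because it was high in DMSO, so these shares are a description too.

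BRD9, TTC3, ECT2 and NOL9 held the exons that fell furthest. This comparison and the first share the K700E DMSO samples, so a high level there enters both. The called exons named for a fall were picked for groups without overlap, so that lack of overlap is no further result. The BRD9 exon went from 41.7%, 50.6% and 47.8% to 12.3%, 11.03% and 16.1%, and fell by 33.6 points (limma, adjusted p = 1.18e-05). Its downstream junction reads went from 391 to 155 while skipping reads went from 229 to 556. The TTC3 exon went from 58.8%, 57.6% and 53.4% to 25.1%, 24.9% and 24.9% (limma, adjusted p = 0.00355). The levels of both genes under the drug stayed above all WT samples.

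The ECT2 exon went from 33.02%, 34.9% and 33.7% to 11.8%, 10.5% and 8.09%, and fell by 23.8 points (limma, adjusted p = 9.1e-05). The intron that holds the ECT2 exon had its own row, with a mean retention of 2.37% in DMSO and 30.4% under the drug, so inclusion fell while retention was higher. NOL9 went from 37.1%, 36.2% and 44.3% to 18.5%, 15.6% and 16.2% (limma, adjusted p = 0.00881). The mean retention of its intron was 27.01% in DMSO and 11.1% under the drug, so both were lower. Retention of these introns was not tested here.

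DNAJB6 had 3 exons called lower. The one with the largest change, with a stop codon in frame, went from 29.7%, 22.9% and 15.5% to 0.65%, 2.13% and 0.58% (limma, adjusted p = 2.98e-05). CHD2 went from 25%, 23.4% and 16.4% to 4.71%, 4.07% and 2.41% (limma, adjusted p = 3.01e-05). MMD, a membrane protein gene, went from 24.7%, 20.6% and 16.7% to 4.35%, 0.74% and 0% (limma, adjusted p = 0.000426). In each of these 3 genes the DMSO samples were spread over several points, with K700E replicate 3 the lowest, and all lay above the drug samples.

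GPCPD1 went from 25.8%, 15.6% and 9.48% to 0.32%, 0.17% and 0%, and its skipping reads from 143 to 1506 (limma, adjusted p = 3.55e-06). The lower level thus came with many more skipping reads. CCDC88A went from 27.1%, 21.7% and 28.1% to 9.52%, 7.69% and 6.98% (limma, adjusted p = 0.000276). UPRT, a gene related to uracil phosphoribosyltransferases, went from 23.4%, 21.5% and 11.1% to 0.61%, 3.00% and 3.05% (limma, adjusted p = 0.000369). The MZB1 exon was not called: it had 27.5%, 15.9% and 20.3% in DMSO and 25.1%, 18.8% and 30.7% under the drug, a difference of 3.66 points (limma, adjusted p = 0.41), and the groups overlapped.

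The 64 exons called higher lay in 62 genes, and their median level went from 4.07% to 21.6%. They were 1.25% of the 5131 rare exons in the fit, while 0.443% of all 46284 exons in the fit were called higher. The 5131 entered the fit by their mean level over all 12 samples, so an exon could enter because it was high under the drug, and its share is a description. At any size and an adjusted p under 0.05, 484 rare exons were higher, 9.43% of the 5131, and the share over the fit was 1.95%. Those that rose furthest were in PRKAR2A, ZNF354B, ZNF354A, GTF2H3, RALGAPA2 and QKI. The called exons named for a rise were picked for groups without overlap, so that lack of overlap is no further result. Leaving out single samples gave 54 to 64 exons, and leaving out K700E DMSO replicate 3 gave 63, with 415 (8.09%) higher at any size.

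PRKAR2A encodes a regulatory subunit of protein kinase A. Its 93 nt exon (chr3:48751980-48752072) lies outside annotated exons and had 1.7%, 1.72% and 1.59% in DMSO and 45.2%, 40.7% and 47.3% under the drug, a difference of 42.7 points (limma, adjusted p = 9.42e-09). The inclusion reads were 44 in DMSO and 605 under the drug on the upstream junction, and 0 in both on the downstream junction. In none of the 4 groups did a read join this exon to the next one.

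GTF2H3 encodes a subunit of the transcription and repair factor TFIIH. Its exon, printed above, had 4.94%, 5.77% and 5.35% in DMSO and 48.5%, 34.9% and 45.6% under the drug, a difference of 37.6 points (limma, adjusted p = 1.71e-06). Reads were found on both sides, 66 upstream, 30 downstream and 827 skipping in DMSO and 86 upstream, 169 downstream and 160 skipping under the drug. Skipping reads were thus fewer and downstream reads more under the drug.

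QKI encodes an RNA-binding regulator of splicing. Its exon (chr6:163565946-163566067, 122 nt) starts at an annotated 3' splice site and ends at an unannotated 5' splice site. The stop codon at base 24 is printed above. Whether it is an early stop or an annotated protein end was not tested. It had 3.04%, 2.73% and 2.54% in DMSO and 40.6%, 36.2% and 27.9% under the drug, a difference of 32.1 points (limma, adjusted p = 3.99e-07). The reads were 39 upstream, 13 downstream and 906 skipping in DMSO and 573 upstream, 6 downstream and 547 skipping under the drug. Mean retention of the intron around it was 5.79% in DMSO and 34.1% under the drug. Nearly all inclusion reads under the drug thus lay on the upstream junction, and retention of the same intron was higher.

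The zinc finger genes ZNF354B and ZNF354A are near copies of each other, and reads could be shared between their 104 nt exons, so their values are uncertain in this respect. ZNF354B went from 1.22%, 1.96% and 1.96% to 35%, 45.9% and 44.4% (limma, adjusted p = 6.77e-07). ZNF354A went from 0.47%, 0% and 1.25% to 25.6%, 41.9% and 46.03% (limma, adjusted p = 1.65e-06). The groups did not overlap in either gene, by which they were picked. RALGAPA2, a subunit gene of a GTPase activator for Ral, went from 0.63%, 3.93% and 4.05% to 34.5%, 33.1% and 43.97% (limma, adjusted p = 2.75e-05). RBM39, a splicing factor gene, went from 9.88%, 8.33% and 13.3% to 42.6%, 29.4% and 40.7% at an exon of 155 nt annotated only in NMD or noncoding transcripts (limma, adjusted p = 7.72e-05). The RBM39 exon was read on both sides, with 289 upstream, 92 downstream and 322 skipping reads under the drug.

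MTMR1, a phosphoinositide phosphatase gene, went from 6.4%, 8.72% and 12.6% to 36.8%, 39.4% and 31.9% at its 211 nt exon with a stop at base 49 (limma, adjusted p = 5.35e-05). The annotated introns next to that exon had more spliced reads than its own row (292 and 272 per sample against 126), as in 2 of the 64. EDRF1, an erythroid regulator gene, went from 6.11%, 4.57% and 5.72% to 34.8%, 24.8% and 26.5% at its exon with a stop at base 18 (limma, adjusted p = 5.81e-06), while mean retention of the intron around it went from 25.5% to 64.3%. EDC3, which encodes an mRNA decapping factor, went from 6.49%, 4.7% and 7.05% to 45.1%, 24.1% and 23.4% (limma, adjusted p = 0.000249). The drug samples of EDC3 were wide apart and all above the DMSO samples. The 3 called exons of DST, a cytoskeletal linker gene, share skipping reads, and the highest of them went from 9.19%, 3.37% and 8.06% to 25.6%, 24.3% and 40.9% (limma, adjusted p = 0.00103). Here 1 of the drug samples stood well above the other two. TET3, a gene of 5-methylcytosine oxidation, went from 2.71%, 1.15% and 1.31% to 27.6%, 24.6% and 19.9% (limma, adjusted p = 4.67e-06). TPRA1, a membrane protein gene, went from 11.1%, 7.56% and 7.32% to 34.8%, 24.6% and 42.6% (limma, adjusted p = 0.00131), on few reads: 0 upstream, 56 downstream and 49 skipping under the drug. WASHC5, a WASH complex gene, went from 7.78%, 4.96% and 5.97% to 25.4%, 27.7% and 34.1%, and FAM160B2 from 2.04%, 0% and 1.37% to 26.2%, 22.2% and 22.8%. No drug sample of TET3, TPRA1, WASHC5 or FAM160B2 overlapped a DMSO sample, as the choice of named exons required.

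**Figure D3:**
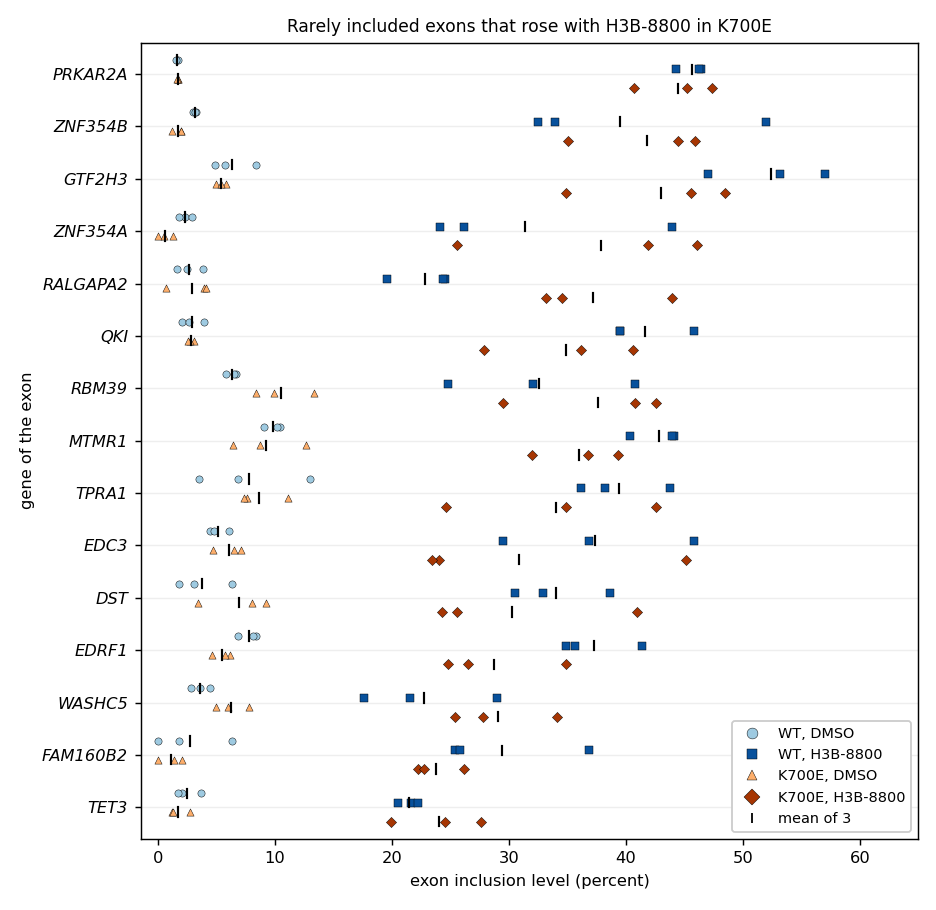
Inclusion level in percent (horizontal axis) of the 15 rarely included exons, 1 per gene (vertical axis), with the largest rise under H3B-8800 in K700E. Each symbol is 1 sample of the group in the legend and each bar the mean of 3. The drug samples of K700E (diamonds) lie between 19.9% and 47.3%, and the DMSO samples of both genotypes at 13.3% or lower.

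Reads lay on both sides of most exons that fell, as they did for rare exons as a whole. They lay mostly on 1 side of most exons that rose. An exon that is joined on both sides has reads on its upstream and its downstream junction. An exon was counted as read mostly on 1 side when the other junction had under 20% of its inclusion reads. Of the 64 exons that rose, 23 (35.9%) were read on both sides under the drug, 23 (35.9%) mostly upstream and 18 (28.1%) mostly downstream. Of the 77 that fell, 61 (79.2%) were read on both sides in DMSO, 4 mostly upstream and 11 mostly downstream. Without K700E DMSO replicate 3 the share was 77 of 98 (78.6%). Over all rare exons with 20 or more inclusion reads in the group, 3884 of 4895 (79.3%) were read on both sides in K700E DMSO and 1743 of 2566 (67.9%) under the drug. In WT the shares were 3693 of 4648 (79.5%) in DMSO and 1572 of 2408 (65.3%) under the drug. The 79.2% of the exons that fell was thus no different from the 79.3% of all rare exons in K700E DMSO. Exons that fell were read in DMSO and exons that rose under the drug, so their shares are not like for like. These shares are descriptions of exons chosen by their change, with no test.

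**Figure D4:**
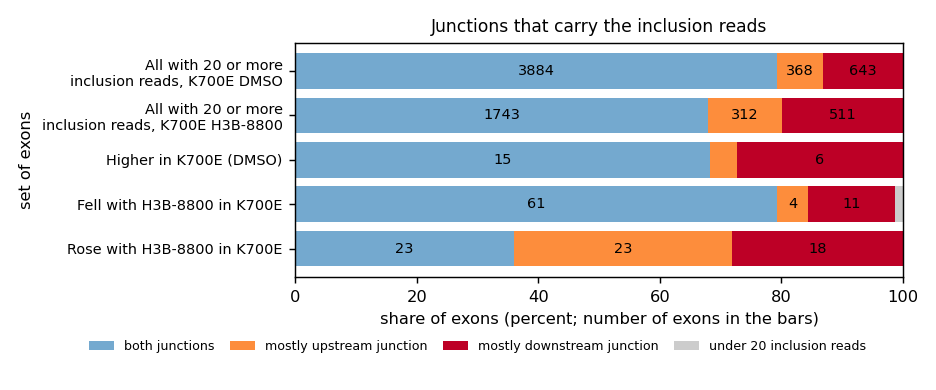
Share of exons in percent (horizontal axis) whose inclusion reads lay on both junctions or mostly on 1, for sets of rarely included exons (vertical axis); numbers in the bars are exons. Reads were taken in K700E DMSO for the exons that fell or stood higher in K700E and in K700E H3B-8800 for those that rose, of which 23 of 64 were read on both sides.

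Retention of the surrounding intron was higher under the drug at most of the exons that rose for which it could be read. The intron between the flanking exons had a row of its own for 37 of the 64 exons that rose and 44 of the 77 that fell, under 80% of each, so the following describes those introns and is void for the whole sets. Retention was 10 points or more higher under the drug at 27 of the 37 introns (73.0%), and their median went from 4.20% to 27.6% in K700E. In WT the median of the 37 went from 3.52% to 24.7%. At the exons that fell, retention was 10 points or more higher at 1 of 44 introns (2.27%), and the median went from 2.33% to 1.97%. Over all rare exons with such an intron the count was 986 of 10300 (9.57%). Whether retention has a part in the rises was not tested. The exons that rose also lay between shorter introns, with medians of 1009 nt upstream and 1122 nt downstream, against 1845 nt and 2581 nt for those that fell. Their median length was 125 nt, against 104 nt.

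By annotation, of the 64 exons that rose, 25 lay outside annotated exons, 18 overlapped one without sharing both ends, 11 were annotated only in NMD or noncoding transcripts and 10 in coding transcripts. Of the 77 that fell, the counts were 17, 10, 26 and 24. The frame was known for 31 of the 64, of which 24 had a stop codon in frame, and for 41 of the 77, of which 20 had one. Both are under 80% of their set, so the check is void for the sets as a whole.

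In WT cells most of these exons moved in the same direction under the drug. The WT DMSO values chose the exons, so this is a description without a test. In WT, 70 exons in 67 genes stood 10 points or more higher under the drug without overlap. They were 0.448% of the 15626 rare exons, and 0.562% of the 46284 exons in the fit were higher by this rule. The bases of these shares are unlike, and the shares were not compared. A fall of 10 points was not possible. Of the 64 exons called higher in K700E, 52 (81.2%) were among the 70, of which they were 74.3%. All 64 had a higher mean under the drug in WT, with a median that went from 3.87% to 21.8%. Of the 77 called lower in K700E, 75 had a lower mean in WT, where the median went from 7.64% to 1.08%. In WT, 3787 of the 5131 rare exons in the fit had a lower and 1343 a higher mean under the drug. Of all 46284 exons in the fit, 42822 were lower and 3372 higher. The 75 of 77 thus lay near the share over all exons in the fit. The drug comparisons in WT and in K700E have no sample in common.

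PRKAR2A went from 1.64%, 1.67% and 1.56% to 44.2%, 46.4% and 46.2% in WT, and its samples under the drug overlapped those of K700E. QKI went from 3.89%, 2.08% and 2.66% to 39.5%, 39.5% and 45.8%, and GTF2H3 from 5.68%, 8.39% and 4.84% to 47%, 57% and 53.1%. RALGAPA2 went from 2.5%, 3.81% and 1.61% to 24.6%, 24.3% and 19.6%, all under the K700E samples with the drug. Their difference of 14.4 points under the drug did not pass the test (limma, adjusted p = 0.665). An exon of the ceramide transfer gene COL4A3BP went from 12.1%, 9.86% and 7.88% to 0.71%, 0.29% and 0.68% in WT and from 11.5%, 8.03% and 8.34% to 1.27%, 1.35% and 1.2% in K700E.

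**Figure D5:**
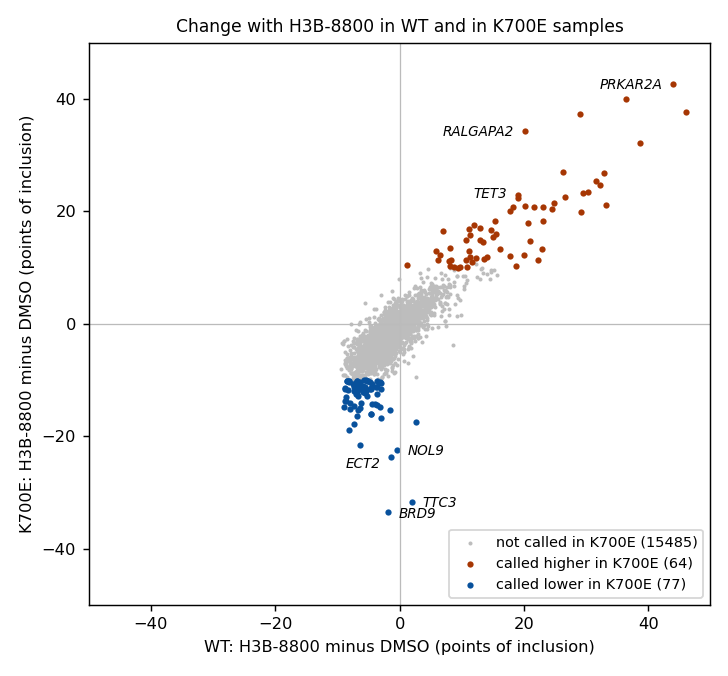
Difference of mean inclusion between H3B-8800 and DMSO, in percentage points, in WT (horizontal axis) and K700E (vertical axis); each point is 1 of the 15626 exons. The 64 exons called higher in K700E (red) all lie right of 0 in WT; the 77 called lower (blue) lie within 10 points of 0 on the WT axis, since no exon started at 10% or more there, and 75 of them lie left of 0.

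The gene lists below are described by counts, beside the shares over all rare exons in the fit, of which 38.9% were lower and 9.43% higher with the drug at an adjusted p under 0.05 and any size, against 76.4% and 1.95% of all exons in the fit. No list was tested against these shares. Without K700E DMSO replicate 3 the calls at 10 points in the lists stayed the same in number except for 1 more lower, in SON. Of 14 genes of SR proteins and TRA2, which bind exons and promote their inclusion, 8 held 19 of the rare exons. In either limma test 0 of the 19 were called at 10 points, and of the 7 in the fit 6 were lower with H3B-8800 in K700E at an adjusted p under 0.05 and any size, 0 higher. The median difference of the 19 was -0.623 points, against -0.163 for all 15626. The SRSF2 exon went from 5.3%, 5.33% and 3.77% to 1.00%, 0.66% and 0.61% (limma, adjusted p = 3.41e-07). SRSF4 went from 6.08%, 5.5% and 6.16% to 0.65%, 0.63% and 1.02% (limma, adjusted p = 1.38e-06), and TRA2A from 8.99%, 7.6% and 9.93% to 1.24%, 2.55% and 2.71% (limma, adjusted p = 4.67e-05). In these 3 genes every drug sample lay under every DMSO sample. In WT, SRSF2 went from 4.45%, 4.43% and 4.41% to 0.54%, 0.61% and 0.52%.

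Of 45 genes of hnRNPs and other splicing regulators, 29 held 65 of the rare exons. The RBM39 exon was the 1 called higher with the drug and 0 were called lower. At any size 2 of the 25 in the fit were higher and 14 lower, and the median of the 65 was -0.453 points. SON, which encodes a large scaffold of nuclear speckles, went from 11.1%, 11.96% and 7.07% to 0.2%, 0.16% and 0.31% (limma, adjusted p = 2.22e-08). LUC7L3, a gene of a factor tied to the U1 particle, went from 7.61%, 9.4% and 5.6% to 0.66%, 0.72% and 0.65% (limma, adjusted p = 2.49e-06). TIA1, a gene of a protein that helps U1 bind, went from 12.2%, 13.5% and 10.9% to 3.77%, 5.71% and 3.9% (limma, adjusted p = 0.000134). In these 3 genes too, every drug sample lay under every DMSO sample. SNRNP70 encodes a core protein of the U1 particle, and its exon with the stop printed above went from 14.6%, 11.7% and 9.09% to 6.65%, 5.21% and 4.88% in K700E (limma, adjusted p = 0.00167). It had 5.96%, 6.92% and 9.57% in DMSO and 2.13%, 2.29% and 2.98% under the drug in WT. Under the drug the SNRNP70 exon was higher in K700E than in WT (limma, adjusted p = 0.0487), by 3.11 points. SON passed that test as well (limma, adjusted p = 0.0401), with a difference of 0.143 points. The SON difference is very small, and results at any size are less firm in this comparison.

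Of 32 genes known for splicing changes with mutant SF3B1, 21 held 47 rare exons. The list was drawn up with earlier results of these data known and is no independent evidence. BRD9, TTC3, NOL9 and TMEM214 were called lower with the drug in K700E and 0 exons were called higher. TTC3 and NOL9 were called higher in K700E than in WT under the drug. At any size 8 of the 13 exons in the fit (10 without K700E DMSO replicate 3) were lower and 1, in the golgin gene GCC2, was higher with the drug. The median of the 47 was -0.227 points.

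Of 32 apoptosis regulators, 17 held 41 rare exons, with 0 called in either test. At any size 1 of the 14 in the fit was higher and 6 were lower with the drug in K700E, and the median of the 41 was -0.247 points. The exon of BIRC5, which encodes survivin, went from 6.74%, 6.95% and 6.74% to 1.37%, 1.72% and 1.52% (limma, adjusted p = 2.49e-06), and that of the caspase-8 inhibitor gene CFLAR from 6.32%, 6.23% and 4.69% to 0.45%, 0.52% and 0.39% (limma, adjusted p = 8.57e-07). The exon of the initiator caspase gene CASP2 went the other way, from 9.95%, 13.4% and 7.56% to 14.9%, 20.3% and 14.3% (limma, adjusted p = 0.0304), but did not pass without K700E DMSO replicate 3 (limma, adjusted p = 0.121). Of 36 DNA repair genes, 32 held 105 rare exons, with 0 called in either test. At any size 1 of the 32 in the fit was higher and 10 were lower (2 and 11 without K700E DMSO replicate 3), and the median of the 105 was -0.227 points.

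Of 18 genes of nonsense-mediated decay, 12 held 31 rare exons, with 0 called in either test. At any size 2 of the 13 in the fit were higher and 4 lower. The exon of UPF1, the central helicase of the pathway, went from 0.09%, 0.32% and 0.49% to 3.83%, 5.85% and 3.16% (limma, adjusted p = 3.47e-05). That of its partner UPF2 went from 0.63%, 0.92% and 0.4% to 7.73%, 3.92% and 6.08% (limma, adjusted p = 3.87e-05). The median of the 31 was -0.0167 points, and 0.02 without K700E DMSO replicate 3. Since decay removes transcripts with early stops, levels describe the transcripts present, and a change in inclusion cannot be told apart from a change in their decay.

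Of 25 genes of B cell receptor signalling, 20 held 58 rare exons. With the drug in K700E, 1 was called higher and 0 were called lower. At any size 3 of the 12 exons in the fit, those of PLCG2 and RASGRP3 among them, were higher and 4 lower, and the median of the 58 was -0.0717 points (-0.02 without K700E DMSO replicate 3). The exon of the kinase gene SYK was higher in K700E than in WT under the drug at any size (limma, adjusted p = 0.0272), with 0%, 0% and 2.24% in WT and 7.62%, 4.48% and 9.62% in K700E.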

How the data were processed

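Stranded poly(A) libraries of 12 MEC1 samples were sequenced, per the labels' protocols. Adapters were trimmed with cutadapt 2.4 and the build is hg38, per the submitters' processing notes; the sources used here give neither the aligner nor the event tool. The authors deposited 1 table of 721551 splicing events with, per the file headers, an inclusion level in percent for each sample and a text column with raw junction reads and corrected inclusion and exclusion reads. Percent values are ratios within a sample, with no normalization between samples. In 3756384 values the percent and the reads differed by more than 1 point in 0, and reads were missing in 16884 cells. The 36 columns of single runs were not used.

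The rule gave 15626 exons; the members, the gene lists and the tests were chosen with earlier results of these data known. With limma 3.58.1 (R 4.3.3), 1 model of the 4 groups was fitted to 109093 events that had 20 or more reads in every sample and a mean level of 1% to 99%. It used the log2 ratio of inclusion to exclusion reads, with 0.5 added to each, and a variance trend on mean log2 reads. P-values were adjusted by Benjamini-Hochberg over these events. A call took an adjusted p under 0.05 and 10 points or more. On simulated data the call rule found no unchanged event, while the adjusted p alone passed more unchanged events than its threshold allows for K700E against WT under H3B-8800, so results at any size are less firm. The simulation gave every event the same spread between samples, so it does not cover exons whose samples lay wide apart. The smallest p of an exact permutation test of 3 against 3 is 0.1, so single values were not tested that way. The labels do not say whether replicates were separate cultures, so p-values measure the spread between these samples. K700E DMSO samples serve in 2 comparisons, and K700E H3B-8800 samples in 2; their calls were not compared.

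For H3B-8800 against DMSO, the tag in the labels pairs the samples of 1 line. Over 5131 exons the deviations of such pairs correlated at 0.121, 0.133 and 0.106 in K700E and 0.0607, 0.0363 and 0.0785 in WT, and a fit with the line as a block was an alternative. Named exons were those called without overlap of the groups, 1 per gene, by size of difference (15 higher and 10 lower with the drug in K700E, all for K700E against WT under the drug), those with the largest untested differences, and for each list gene the exon with the largest difference; other genes were named after their values were seen. Values of some exons that this rule names are not reported here. Exons were matched to GENCODE v29; no genome sequence was used, so exons outside its transcripts have no sequence here. Python 3.11.15, pandas 2.3.3, numpy 2.4.6 and matplotlib 3.10.9 were used.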

Additional observations from a re-analysis of the deposited data

Results flagged for a closer look

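Of 42 named exons, 3 moved in opposite directions with H3B-8800 in the 2 genotypes, in all 3 pairs of samples of each; the difference between the genotypes was not tested. The CCDC88A exon stood 2.61 points higher with the drug in WT and -17.6 points from DMSO in K700E. The TAF2 exon stood 8.53 points higher in WT and -3.81 points from DMSO in K700E. The TRIM23 exon stood -4.14 points from DMSO in WT and 2.64 points higher in K700E. CCDC88A and TAF2 were named for levels higher in K700E than in WT in DMSO, and TRIM23 for lower ones. The same DMSO values are the baselines of these differences, so the choice favours the opposite signs, which are a description.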

How the results depend on the processing

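No result reversed. Of 366 refits of the 29 named exons, 360 kept the direction and the call, and 27 exons kept both in each refit that could be run (11 had too few reads for the minimum of 50); the 6 lost calls, of RBM6 and TTC3, are given with their values above. For H3B-8800 against DMSO in K700E, a size limit of 5 points gave 155 exons higher and 531 lower, a limit of 20 points 23 and 5, and a WT DMSO level under 5% 38 and 11; a minimum of 50 reads gave 48 lower. For K700E against WT under H3B-8800, limma on the percent scale gave 6 higher and 2 lower, 5 points 9 and 2, and 0 exons were lower at 20 points or with a WT DMSO level under 5%. The untested counts of 22 and 70 became 109 and 174 at 5 points and 5 and 25 at 20 points. Leaving out 1 replicate gave 54 to 64 higher and 72 to 98 lower with the drug in K700E, 2 to 4 higher and 0 to 1 lower for K700E under the drug, 22 to 29 for K700E in DMSO and 67 to 77 for the drug in WT. With the line as a replicate block the counts with the drug were 63 and 77, and the block changed no named call. Between genotypes the samples share only a number (correlations of -0.0255, -0.0239 and 0.0211), and a block on it left 3 and 1. The size limits and the level under 5% set the counts by construction; for the percent scale and left-out replicates the cause was not tested. Few reads per exon limit levels near 0.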
